A study of Homo sapiens with 48 samples.

Results

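NLRP7, SUSD3, SLC6A16 and TAS1R3 are 4 of the 25066 genes in a count table of 48 RNA-seq libraries from lymphoma cells. They were chosen by measured values: each stood above vehicle at 24 h with all or several of 3 inhibitors in both of the cell lines studied. All 4 had enough reads to enter the tests, in which 13881 genes took part. The lines are TMD8 and HBL1, human diffuse large B cell lymphoma lines of the activated B cell-like kind, both engineered to carry Cas9. Cells had received NGI-1 at 5 µM, acalabrutinib at 50 nM, copanlisib at 20 nM or the vehicle DMSO for 3, 6 or 24 h, and each of the 24 groups of line, agent and time held 2 libraries, labelled as duplicates. Since Cas9 is in every group, DMSO included, the table holds no cells without it.

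NGI-1 blocks the oligosaccharyltransferase that attaches sugar chains to new proteins in the endoplasmic reticulum. Acalabrutinib blocks BTK, and copanlisib blocks class I PI3K, kinases that carry the signal of the B cell receptor on which activated B cell-like lymphoma cells depend. The 4 genes belong to unrelated families. NLRP7 encodes an NLR protein of the cytosol with a pyrin domain, best known because maternal mutations cause recurrent hydatidiform moles, and it has been linked to inflammasome control in cell models. SUSD3 encodes a membrane protein with a sushi domain, known as an oestrogen-responsive gene of breast cancer. SLC6A16 encodes an orphan member of the neurotransmitter transporter family, and TAS1R3 encodes the shared subunit of the sweet and umami taste receptors. None of the 4 is a classical marker of B cells.

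The stretches of 250 bases before each RefSeq start site (GRCh38.p14) are shown because the 4 genes share no family and the letters upstream of the start are where their sequences can be set side by side. They lie at chr19:54947531-54947780 on the minus strand for NLRP7, chr9:93058451-93058700 on the plus strand for SUSD3, chr19:49325192-49325441 on the minus strand for SLC6A16 and chr1:1331030-1331279 on the plus strand for TAS1R3. Capitals mark the motif letters found by the search described next, and each line runs 5′ to 3′ towards the start site.
NLRP7: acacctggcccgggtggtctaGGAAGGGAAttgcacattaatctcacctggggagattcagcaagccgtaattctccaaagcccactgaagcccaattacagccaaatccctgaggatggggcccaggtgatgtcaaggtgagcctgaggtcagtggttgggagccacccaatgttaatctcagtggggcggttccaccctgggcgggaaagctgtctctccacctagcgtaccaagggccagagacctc
SUSD3: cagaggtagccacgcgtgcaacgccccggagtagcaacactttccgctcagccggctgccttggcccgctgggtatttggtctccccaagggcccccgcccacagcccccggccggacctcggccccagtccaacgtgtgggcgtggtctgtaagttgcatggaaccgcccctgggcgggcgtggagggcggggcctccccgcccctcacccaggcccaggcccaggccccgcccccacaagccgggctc
SLC6A16: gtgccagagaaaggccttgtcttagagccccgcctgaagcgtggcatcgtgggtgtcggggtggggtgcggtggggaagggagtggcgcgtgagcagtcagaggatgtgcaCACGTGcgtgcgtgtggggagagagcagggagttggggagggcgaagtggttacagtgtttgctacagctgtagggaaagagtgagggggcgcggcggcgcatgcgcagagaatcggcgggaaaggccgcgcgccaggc
TAS1R3: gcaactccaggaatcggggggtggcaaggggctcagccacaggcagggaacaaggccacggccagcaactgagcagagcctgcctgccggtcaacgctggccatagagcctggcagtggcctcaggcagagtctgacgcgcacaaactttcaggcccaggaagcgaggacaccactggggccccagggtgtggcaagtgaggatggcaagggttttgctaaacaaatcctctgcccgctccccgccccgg

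Both strands were searched for the letters of 7 known motifs. NLRP7 held 1 ETS-IRF composite (GGAANNGAA), which 6.58% of 35116 RefSeq promoter windows of the same length also held. SLC6A16 held 1 E-box (CACGTG), found in 6.34% of those windows, and no motif overlapped another. SUSD3 and TAS1R3 held none of the 7, so no motif was common to the 4 windows. Of the motifs found in none of the 4, the forkhead site of FOXO factors (GTAAACA) was in 2.98% of all windows and the NF-kB site (GGGACTTTC) in 0.325%. The cAMP response element (TGACGTCA) was in 1.65%, the STAT site (TTCNNNGAA) in 6.57% and the TATA box (TATAAA) in 10.7%. The absence of these letters says nothing about binding of the factors elsewhere. The windows also differed in base composition: 73.2% of bases were G or C for SUSD3, 65.6% for SLC6A16, 64.4% for TAS1R3 and 56.8% for NLRP7, against a median of 58% over all windows.

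The libraries held 7165377 to 11999050 counted reads, with a median of 9182128. All 6 B cell markers and all 6 markers of activated B cell-like lymphoma had enough reads to be tested, and the summed B cell level lay between 2658 and 4386 CPM in TMD8 and between 2330 and 3839 CPM in HBL1. Of 9 T and NK cell markers 2 had enough reads to be tested, with a summed level of at most 6.61 CPM. Of 7 myeloid markers 3 were tested, with a sum of at most 4.18 CPM. Of 8 stromal or epithelial markers 5 were tested, with sums of up to 18.9 CPM in TMD8 and 26.0 CPM in HBL1. Germinal centre-like markers, 3 of 4 tested, summed to 72.5 to 184 CPM in TMD8 and to 2.56 to 6.63 CPM in HBL1. These marker sums are scaled to library size alone, while elsewhere CPM is counts of a gene scaled to a common library size with TMM factors. CPM does not allow for gene length, so levels are compared here within a gene and not between genes. These are bulk libraries, in which more cells with a transcript and more transcript per cell cannot be told apart.

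At 24 h, the time on which the genes were chosen, NLRP7 in TMD8 stood at 12.9 and 11.5 CPM with NGI-1, at 18.3 and 11.3 CPM with acalabrutinib, and at 12.5 and 10.4 CPM with copanlisib, against 1.72 and 0.763 CPM with DMSO. In HBL1 it stood at 31.5 and 24.6 CPM with NGI-1, 44.9 and 28.2 CPM with acalabrutinib, and 56.4 and 47.2 CPM with copanlisib, against 4.08 and 3.85 CPM with DMSO. Every treated library of a line lay above both of its DMSO libraries. The log2 fold changes were 3.31, 3.59 and 3.23 with NGI-1, acalabrutinib and copanlisib in TMD8, and 2.82, 3.19 and 3.70 in HBL1. Counted by the smallest of its 6 values, NLRP7 ranked 2 among all 13881 genes, a rank that follows from how it was picked. With 1 library left out at a time the values ranged from 2.73 to 4.26 in TMD8, the highest without DMSO replicate 1, and from 2.66 to 3.82 in HBL1. The mean log2 CPM of NLRP7 with DMSO differed between 24 h and 3 h by -1.94 in TMD8 and by -1.39 in HBL1, where the 24 h DMSO libraries are among those used in the choice. Set against DMSO at 3 h, the 24 h levels were higher with each compound, by 1.14 to 1.47 in TMD8 and by 1.35 to 2.24 in HBL1. The treated 24 h libraries were used in the choice as well. Such distances from DMSO at 3 h, here and for the genes below, are therefore a description and were not tested.

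SUSD3 was a gene of few reads in TMD8 and of more in HBL1. In TMD8 at 24 h it reached 6.32 and 7.82 CPM with NGI-1, 9.91 and 10.0 CPM with acalabrutinib, and 6.35 and 10.5 CPM with copanlisib, against 1.61 and 1.72 CPM with DMSO. In HBL1 the values were 11.8 and 13.9 CPM with NGI-1, 22.5 and 19.1 CPM with acalabrutinib, and 29.6 and 27.3 CPM with copanlisib, against 1.99 and 3.37 CPM with DMSO. Treated and vehicle libraries did not overlap in either line. The log2 fold changes were 2.07, 2.57 and 2.31 in TMD8 and 2.28, 2.98 and 3.43 in HBL1, in the order NGI-1, acalabrutinib and copanlisib. With 1 library left out at a time the values ranged from 1.92 to 2.64 in TMD8 and from 1.92 to 3.82 in HBL1, the highest without DMSO replicate 2. The vehicle differed between the lines: relative to DMSO at 3 h, DMSO at 24 h differed by 0.33 in TMD8 and by -1.47 in HBL1 (mean log2 CPM). The treated 24 h libraries of HBL1 exceeded DMSO at 3 h by 0.74 with NGI-1, 1.43 with acalabrutinib and 1.88 with copanlisib.

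SLC6A16 at 24 h in TMD8 measured 10.8 and 9.31 CPM with NGI-1, 10.98 and 13.4 CPM with acalabrutinib, and 13.6 and 15.9 CPM with copanlisib, against 2.37 and 1.72 CPM with DMSO. Its HBL1 values were 25.7 and 38.1 CPM with NGI-1, 32.7 and 37.2 CPM with acalabrutinib, and 38.0 and 49.1 CPM with copanlisib, against 8.57 and 10.2 CPM with DMSO. Here too each treated library exceeded each DMSO library of its line. The log2 fold changes were 2.30, 2.58 and 2.85 in TMD8 and 1.76, 1.90 and 2.21 in HBL1. Over the 6 comparisons the values ran from 1.76 to 2.85 for SLC6A16, from 2.82 to 3.70 for NLRP7, from 2.07 to 3.43 for SUSD3 and from 0.93 to 5.64 for TAS1R3. With DMSO, the SLC6A16 level at 24 h differed from that at 3 h by -0.94 in TMD8 and -0.77 in HBL1 (mean log2 CPM), and the treated 24 h libraries exceeded DMSO at 3 h by 1.26 to 1.80 in TMD8 and by 0.95 to 1.41 in HBL1.

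TAS1R3 reached different levels in the lines at 24 h. In TMD8 at 24 h it had 12.99 and 10.2 CPM with NGI-1, 20.1 and 14.2 CPM with acalabrutinib, and 22.3 and 29.7 CPM with copanlisib, against 0.753 and 0.286 CPM with DMSO, where the libraries held 7 and 3 reads of the gene. HBL1 had 0.948 and 1.16 CPM with NGI-1, 2.67 and 2.37 CPM with acalabrutinib, and 2.87 and 2.72 CPM with copanlisib, against 0.498 and 0.601 CPM with DMSO, 5 reads in each library. Treated and DMSO libraries did not overlap, yet the NGI-1 libraries of HBL1 held only 9 and 10 reads. The log2 fold changes were 4.48, 5.05 and 5.64 in TMD8 and 0.93, 2.18 and 2.33 in HBL1. With 1 library left out at a time the TMD8 values ranged from 3.92, without DMSO replicate 2, to 6.44, without DMSO replicate 1. The value of 0.93 with NGI-1 in HBL1 is the single one of the 24 values below a doubling (23 of 24 were at least 2-fold). By its smallest value TAS1R3 therefore ranked 116, while SUSD3 ranked 10 and SLC6A16 ranked 13, and 88 genes were at least 2-fold higher in all 6 comparisons. With DMSO, the TAS1R3 level at 24 h differed from that at 3 h by -2.004 in TMD8 and -0.59 in HBL1 (mean log2 CPM). NGI-1 at 24 h in HBL1 was 0.14 above DMSO at 3 h, the smallest such distance of the 24.

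**Figure D1:**
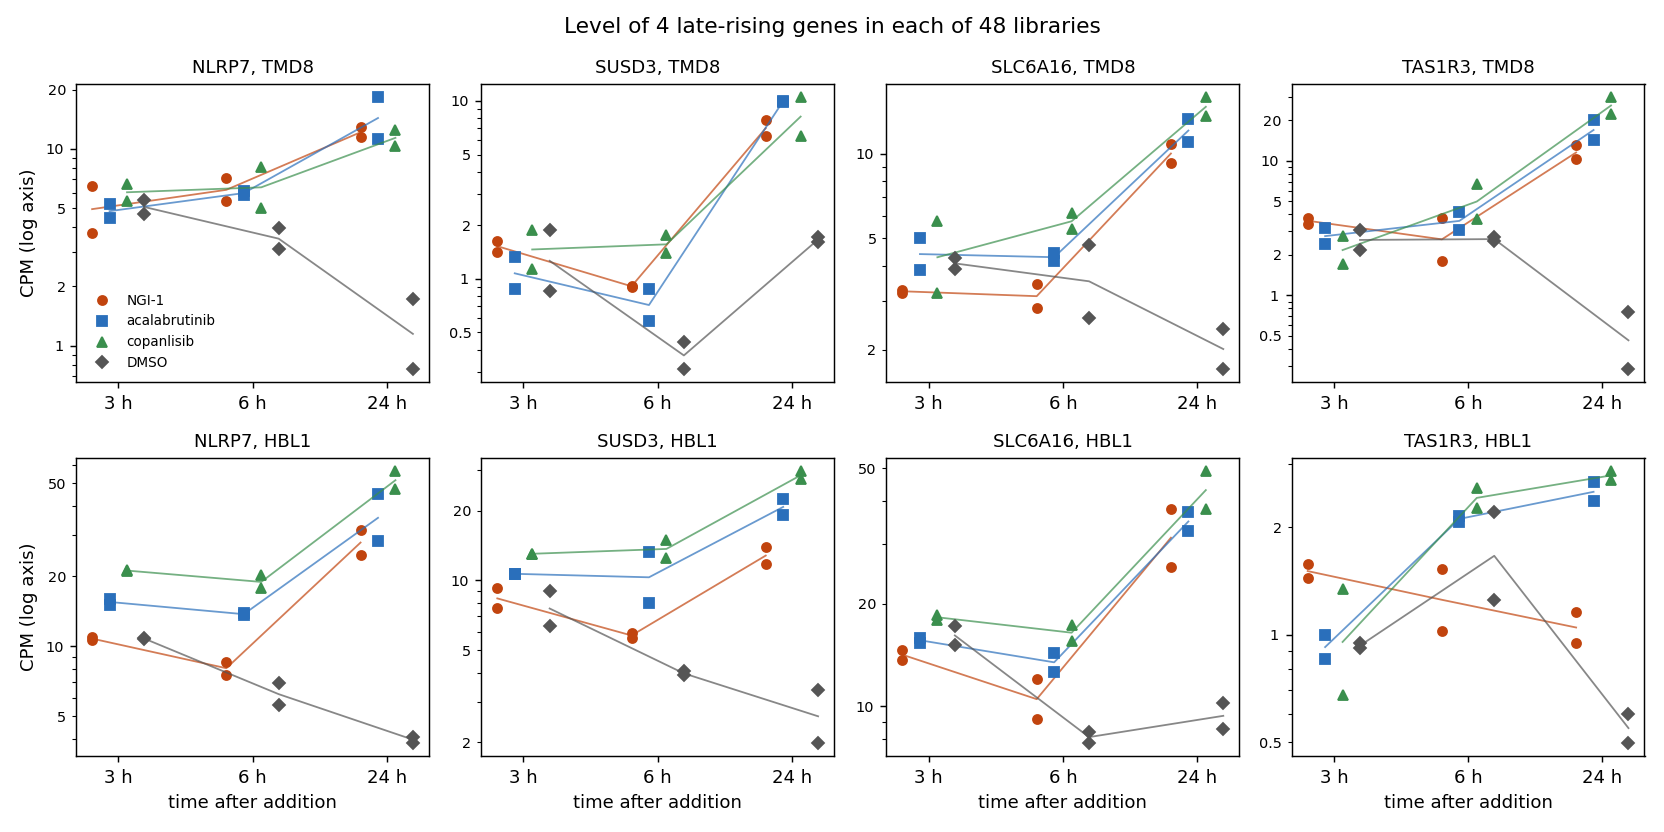
CPM (log axis) of the 4 genes in every library at 3, 6 and 24 h, with TMD8 above and HBL1 below; each mark is a library and lines join geometric means of the 2 libraries of a group. At 24 h all treated marks lie above the DMSO marks of the same panel, and the DMSO mean at 24 h lies below that at 3 h in every panel except SUSD3 in TMD8.

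In all 24 pairings of gene, line and compound at 24 h, both treated libraries lay above both DMSO libraries, as the choice of the genes implies. Over all genes the same held for 24.5% to 33.5% in a comparison. Over all 13881 genes the share called higher at an adjusted p under 0.05 was 15.6% with NGI-1, 15.3% with acalabrutinib and 15.6% with copanlisib in TMD8, and 7.87%, 7.53% and 12.5% in HBL1, in the same order of compounds. The share called lower was 14.8%, 15.5% and 16% in TMD8 and 11.4%, 11.4% and 17.7% in HBL1. Nothing is read from the members' count at this time, and no test of them at 24 h is given. The 3 compounds of a line and time share their DMSO libraries, so their fold changes are not separate measurements of the same thing.

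The 3 h and 6 h libraries were not used in the choice and could be tested. At 3 h 2 of 24 pairings were called, both with copanlisib in HBL1, and 17 of 24 fold changes were positive. By 6 h 9 of 24 were called, all higher, and 22 of 24 were positive, with both treated libraries above both DMSO libraries in 19. Over all genes that non-overlap held for 19.4% to 30.7% in a comparison at 6 h. The share of positive fold changes over all genes was not computed. Compounds of a line share their DMSO libraries at 3 h and 6 h too, so the pairings are not separate. The 9 calls are 37.5% of the pairings, where 3.11% of all tests of a gene at 6 h were called higher. At 3 h the shares were 8.33% for the 4 genes and 0.409% for all genes. By comparison, the share of all genes called higher at 3 h was 0.569% with NGI-1, 0% with acalabrutinib and 0.656% with copanlisib in TMD8, and 0.353%, 0.0288% and 0.85% in HBL1. At 6 h it was 2.26%, 1.7% and 6.98% in TMD8 and 1.08%, 2.46% and 4.2% in HBL1. All tests are edgeR's quasi-likelihood F test with Benjamini-Hochberg adjustment over the 13881 genes, and with 2 libraries per group they measure the spread between these libraries only, which may be technical.

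NLRP7 and SUSD3 were the members called at 3 h. At that time NLRP7 in HBL1 had 21.3 and 21.0 CPM with copanlisib and 16.0 and 15.0 CPM with acalabrutinib, against 10.8 and 10.7 CPM with DMSO. The copanlisib difference was called (log2 fold change 0.97 ± 0.21 SE, adjusted p = 0.00469) and the acalabrutinib difference was not (0.52 ± 0.22, adjusted p = 0.805). Both pairs lay above both DMSO libraries. In HBL1 at 3 h the same held for 20.9% of all genes with copanlisib and 16% with acalabrutinib. Without DMSO replicate 1 or 2 of HBL1 at 3 h the copanlisib call was lost at nearly the same size (0.98, adjusted p = 0.0797, and 0.96, adjusted p = 0.0533). At 6 h in HBL1 NLRP7 was higher than DMSO with acalabrutinib (13.9 and 13.6 CPM) and copanlisib (17.7 and 20.1 CPM), against 6.94 and 5.57 CPM with DMSO. With both compounds and with DMSO the level was below that of the same treatment at 3 h, and the mean log2 CPM with DMSO at 6 h differed from that at 3 h by -0.77. The differences from DMSO at 6 h were 1.13 ± 0.24 with acalabrutinib (adjusted p = 0.00201) and 1.59 ± 0.23 with copanlisib (adjusted p = 2.66e-06). Both were called whichever library was left out. NGI-1 gave 7.52 and 8.58 CPM there, 0.36 ± 0.26 above DMSO (adjusted p = 0.730). In TMD8 at 6 h NLRP7 had 7.10 and 5.40 CPM with NGI-1, 5.81 and 6.12 CPM with acalabrutinib and 8.11 and 5.02 CPM with copanlisib, against 3.97 and 3.08 CPM with DMSO. The 3 sizes were close (0.82, 0.75 and 0.87), all treated libraries lay above DMSO, and only copanlisib passed the threshold (adjusted p = 0.122, 0.179 and 0.0372). That call was lost without TMD8 DMSO replicate 1 (adjusted p = 0.0903), DMSO replicate 2 (0.70, adjusted p = 0.252) or copanlisib replicate 1 (0.50, adjusted p = 0.443).

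SUSD3 followed the same order of compounds in HBL1. At 3 h it had 13.04 and 13.01 CPM with copanlisib and 10.7 and 10.7 CPM with acalabrutinib, against 6.33 and 9.03 CPM with DMSO. The copanlisib difference sat at the threshold (0.76 ± 0.22, adjusted p = 0.0494). It was lost in 5 of 8 other fits (adjusted p up to 0.0999, with DESeq2) and without HBL1 DMSO replicate 1 (0.53, adjusted p = 0.595), copanlisib replicate 1 (adjusted p = 0.190) or copanlisib replicate 2 (adjusted p = 0.205). At 6 h SUSD3 in HBL1 was at 12.5 and 15.0 CPM with copanlisib and 8.02 and 13.3 CPM with acalabrutinib, against 4.05 and 3.89 CPM with DMSO. Both differences were called, at 1.79 ± 0.24 (adjusted p = 4.75e-07) and 1.43 ± 0.25 (adjusted p = 0.000103), although the acalabrutinib pair was uneven and its call was lost without acalabrutinib replicate 2 (1.02, adjusted p = 0.0604). NGI-1 gave 5.93 and 5.64 CPM (0.54 ± 0.27, adjusted p = 0.527). Copanlisib in HBL1 averaged 13.0 CPM at 3 h and 13.7 CPM at 6 h, and acalabrutinib averaged 10.7 and 10.6 CPM. The mean log2 CPM with DMSO in HBL1 at 6 h differed from that at 3 h by -0.89. In TMD8 at 6 h the gene was near the limit of detection: 0.917 and 0.901 CPM with NGI-1, 0.581 and 0.874 CPM with acalabrutinib and 1.75 and 1.39 CPM with copanlisib, against 0.313 and 0.440 CPM with DMSO, which are 3 and 4 reads. Only copanlisib, with 16 and 15 reads, was called there (2.02 ± 0.56, adjusted p = 0.00926). Its level with copanlisib was 1.88 and 1.14 CPM at 3 h, overlapping with that at 6 h, while the mean log2 CPM with DMSO at 6 h differed from that at 3 h by -1.34. The call was lost without TMD8 DMSO replicate 1 (1.79, adjusted p = 0.123) or copanlisib replicate 1 (1.86, adjusted p = 0.0698).

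SLC6A16 showed no called difference at 3 h, where its 6 log2 fold changes ran from -0.34 to 0.18. At 6 h in HBL1 it measured 14.3 and 12.6 CPM with acalabrutinib and 17.4 and 15.6 CPM with copanlisib, against 7.80 and 8.41 CPM with DMSO. Both differences from DMSO at 6 h were called (0.73 ± 0.21, adjusted p = 0.0259, and 1.02 ± 0.20, adjusted p = 0.000377). With DMSO the gene had been at 15.1 and 17.2 CPM at 3 h, and its mean log2 CPM with DMSO at 6 h differed from that by -0.97. Both acalabrutinib libraries at 6 h lay below both DMSO libraries of 3 h, and the copanlisib libraries at 6 h overlapped with them. The treated libraries at 6 h lay below those of the same compound at 3 h, when SLC6A16 had 15.3 and 15.9 CPM with acalabrutinib and 18.5 and 17.9 CPM with copanlisib. The acalabrutinib call did not survive the loss of any of its 4 libraries: the adjusted p was 0.224 without HBL1 DMSO replicate 1, 0.0747 without DMSO replicate 2, 0.196 without acalabrutinib replicate 1 and 0.0760 without acalabrutinib replicate 2. The copanlisib call remained in each of those refits (adjusted p = 0.00285 to 0.0169). In TMD8 at 6 h the values were 3.44 and 2.81 CPM with NGI-1, 4.42 and 4.15 CPM with acalabrutinib and 6.14 and 5.39 CPM with copanlisib, against 2.61 and 4.74 CPM with DMSO. The copanlisib libraries lay above an uneven DMSO pair without a call (0.65 ± 0.27, adjusted p = 0.0965); without TMD8 DMSO replicate 2 the difference was 1.12 and was called (adjusted p = 0.0280).

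TAS1R3 had its only early call in TMD8. At 3 h its 6 log2 fold changes ran from -0.25 to 0.68 without a call. The largest in each line was with NGI-1, 0.42 in TMD8 and 0.68 in HBL1. At 6 h in TMD8 copanlisib libraries had 6.69 and 3.72 CPM and acalabrutinib libraries 4.19 and 3.06 CPM. NGI-1 libraries had 3.78 and 1.80 CPM there, and DMSO libraries 2.71 and 2.53 CPM. The copanlisib difference was called (0.96 ± 0.32, adjusted p = 0.0331) and the acalabrutinib difference was not (0.46 ± 0.34, adjusted p = 0.604). DESeq2 (adjusted p = 0.0636) and a separate fit of the line (0.0524) did not call it, nor did fits without TMD8 DMSO replicate 1 (adjusted p = 0.146), DMSO replicate 2 (0.166) or copanlisib replicate 1 (0.50, adjusted p = 0.498). In HBL1 at 6 h TAS1R3 had 2.27 and 2.57 CPM with copanlisib, 2.07 and 2.16 CPM with acalabrutinib and 1.03 and 1.53 CPM with NGI-1, against 1.25 and 2.21 CPM with DMSO. None of these was called, and the intervals were wide, for example -0.29 to 1.28 with copanlisib.

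**Figure D2:**
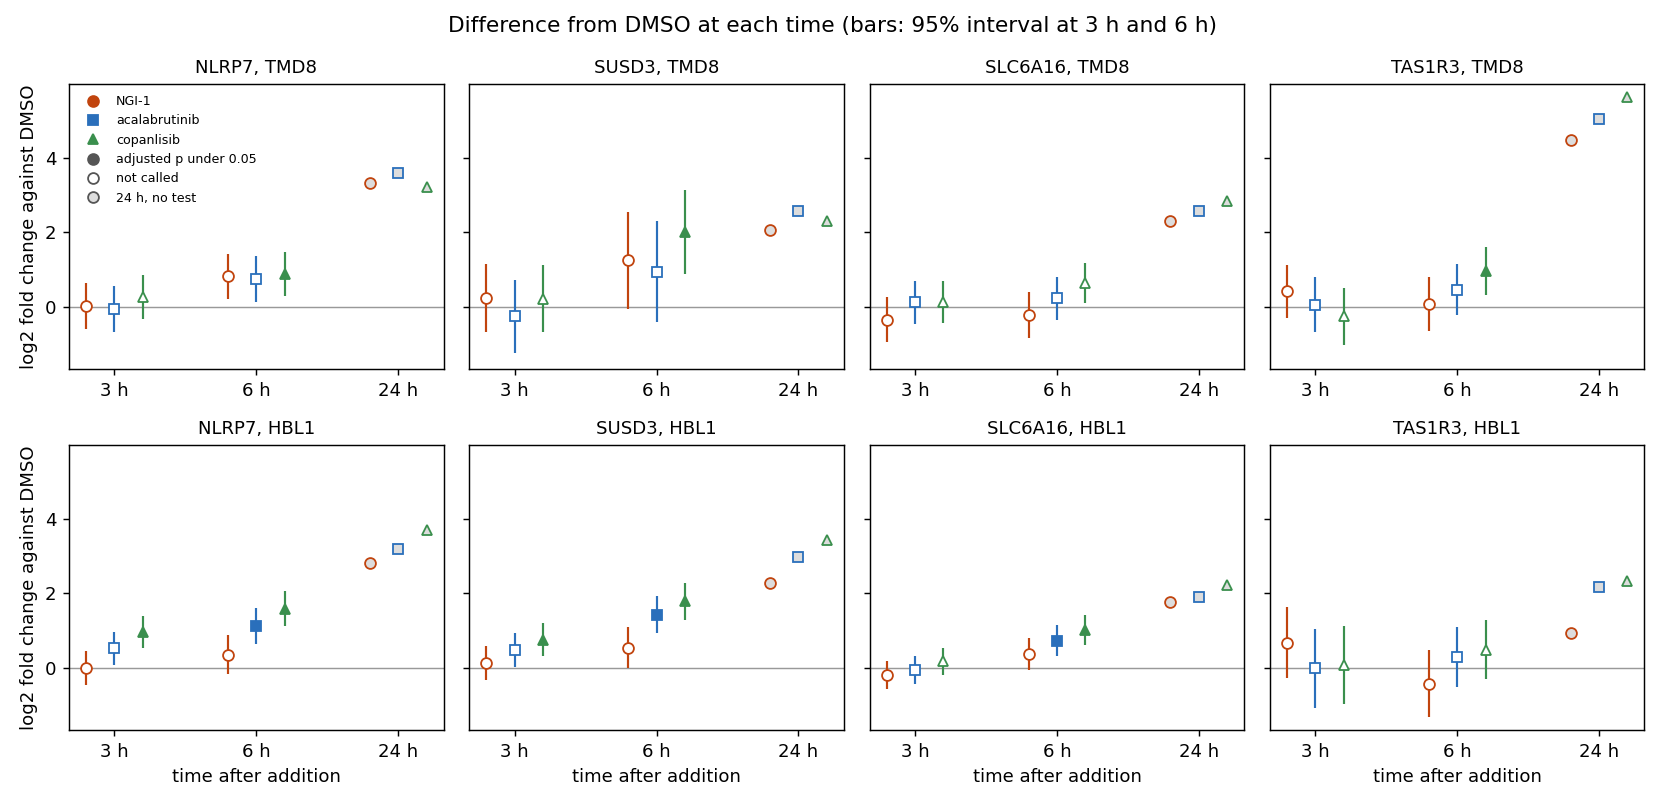
Log2 fold change against DMSO at 3, 6 and 24 h for each gene, with TMD8 above and HBL1 below; bars are 95% intervals at 3 h and 6 h, filled marks passed an adjusted p of 0.05, and grey marks at 24 h carry no test because the genes were chosen on them. Of the 9 called marks at 6 h, 6 are with copanlisib and 3 with acalabrutinib, while NGI-1 has none.

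Whether an effect grew between 3 h and 6 h was tested as the difference of the effects. The estimate was positive in 22 of 24 pairings and called in 0, also with DESeq2, while 7 of the 24 had an unadjusted p under 0.05. At an adjusted p under 0.05, the share of all genes called in either direction was 0% with NGI-1, 0.166% with acalabrutinib and 0.259% with copanlisib in TMD8. In HBL1 it was 0%, 0.0144% and 0.0504%. These shares stand beside the 0 calls and not beside the 7. For all genes, neither the share at an unadjusted p under 0.05 nor that of positive estimates was computed. The largest for a member was SUSD3 with copanlisib in TMD8 (1.79, 95% interval 0.31 to 3.28, adjusted p = 0.521). There copanlisib averaged 1.51 CPM at 3 h and 1.57 CPM at 6 h, and DMSO averaged 1.36 CPM at 3 h and 0.377 CPM at 6 h. For SLC6A16 with copanlisib in HBL1 the difference was 0.85 (0.30 to 1.39, adjusted p = 0.643). The number of libraries limits this test, since it sets 4 groups of 2 against each other.

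NGI-1 gave lower levels at 6 h than the kinase inhibitors in several direct comparisons of treated libraries, which leave DMSO out. Over 24 such comparisons, 3 pairs of compounds in 2 lines for 4 genes, 5 were called, and in each NGI-1 was the lower. In HBL1, NGI-1 minus copanlisib was -1.23 for NLRP7 (95% interval -1.69 to -0.77, adjusted p = 0.000190), -1.24 for SUSD3 (-1.71 to -0.78, adjusted p = 0.000198) and -0.64 for SLC6A16 (-1.04 to -0.24, adjusted p = 0.0398). NGI-1 minus acalabrutinib in HBL1 was -0.89 for SUSD3 (adjusted p = 0.0214) and -0.77 for NLRP7, which was not called (adjusted p = 0.0587) but was in 6 of 8 other fits. In TMD8 the single call was SLC6A16, NGI-1 minus copanlisib (-0.88, -1.43 to -0.32, adjusted p = 0.0489). TAS1R3 had a similar difference there without a call (-0.88, adjusted p = 0.102), and was called without NGI-1 replicate 1 (-1.51, adjusted p = 0.0307) or copanlisib replicate 2 (-1.27, adjusted p = 0.0328). For NLRP7 in TMD8 the same difference was -0.05 (-0.59 to 0.49, adjusted p = 0.976), an interval that includes differences of either sign. The share of all genes called in these comparisons was 5.78% for NGI-1 minus copanlisib, 3.3% for NGI-1 minus acalabrutinib and 0.281% for copanlisib minus acalabrutinib in TMD8, and 6.74%, 3.49% and 0.0937% in HBL1.

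Copanlisib minus acalabrutinib was positive for each of the 4 genes in both lines, between 0.12 and 1.08, with 0 of 8 called and 2 of 8 at an unadjusted p under 0.05. The all-gene shares given above are at an adjusted p, and none at an unadjusted p was computed. The widest was SUSD3 in TMD8 (1.08, 95% interval 0.10 to 2.06, adjusted p = 0.566). The doses of the 3 compounds were single and different, so these comparisons are of the treatments as given. Of the 5 calls, NLRP7 and SUSD3 for NGI-1 minus copanlisib in HBL1 were called whichever library was left out. SLC6A16 in TMD8 was lost without any of its 4 libraries (adjusted p = 0.114 to 0.334) and with RLE size factors (0.0507) or a separate fit of the line (0.0579). SLC6A16 in HBL1 was lost without HBL1 copanlisib replicate 1 (adjusted p = 0.270), copanlisib replicate 2 (0.0779) or NGI-1 replicate 2 (0.400). SUSD3 for NGI-1 minus acalabrutinib was lost without NGI-1 replicate 1 (adjusted p = 0.119), NGI-1 replicate 2 (0.202) or acalabrutinib replicate 2 (-0.48, adjusted p = 0.666).

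**Figure D3:**
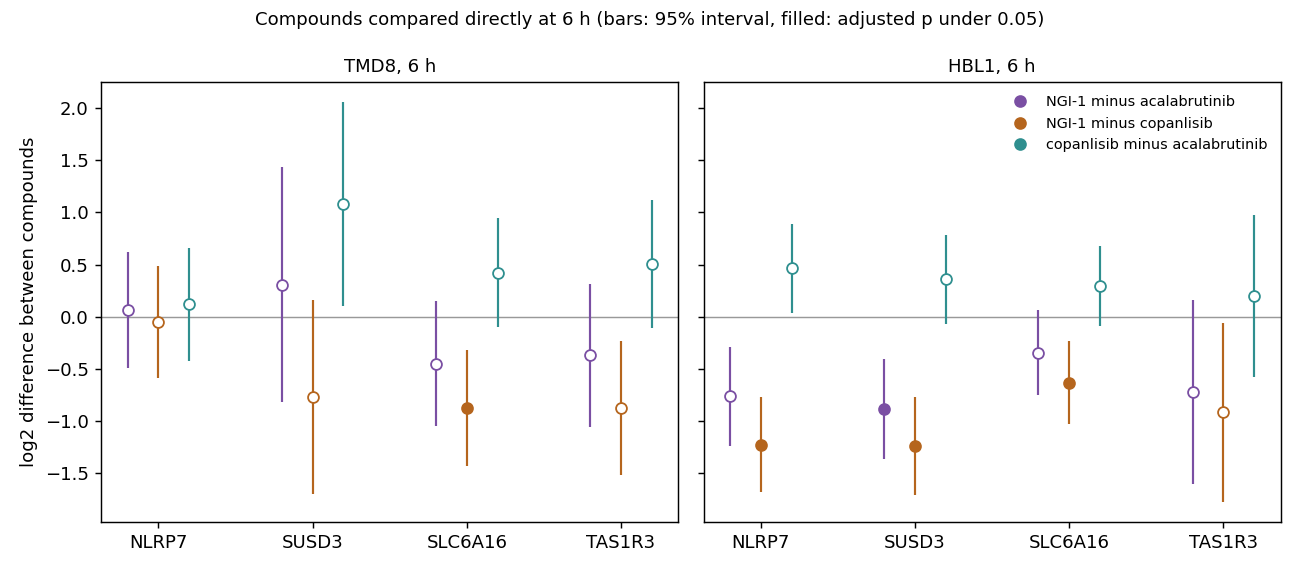
Log2 difference between compounds at 6 h for each gene, from treated libraries alone; bars are 95% intervals and filled marks passed an adjusted p of 0.05. The 5 filled marks lie between -1.24 and -0.64, all on the side where NGI-1 is lower.

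The lines started from different levels. With DMSO at 3 h, TMD8 had 4.67 and 5.49 CPM of NLRP7, against 10.8 and 10.7 CPM in HBL1 (TMD8 minus HBL1 -1.09, adjusted p = 0.000349). SUSD3 had 0.849 and 1.88 CPM in TMD8, against 6.33 and 9.03 CPM in HBL1 (-2.55, adjusted p = 4.05e-09). SLC6A16 had 4.25 and 3.90 CPM in TMD8, against 15.1 and 17.2 CPM in HBL1 (-1.98, adjusted p = 3.27e-10). TAS1R3 went the other way, with 3.08 and 2.17 CPM in TMD8, against 0.919 and 0.945 CPM in HBL1 (1.51, adjusted p = 0.00258), a call lost without TMD8 DMSO replicate 1 (1.21, adjusted p = 0.0718). At 6 h the differences were -0.83 for NLRP7 (adjusted p = 0.0130), -3.36 for SUSD3 (adjusted p = 1.56e-08), -1.15 for SLC6A16 (adjusted p = 9.77e-05) and 0.61 for TAS1R3 (adjusted p = 0.155). The NLRP7 call at 6 h was lost without HBL1 DMSO replicate 1 (-0.65, adjusted p = 0.121) or TMD8 DMSO replicate 2 (-0.66, adjusted p = 0.114). Line differences were common in the table: 65.1% of all genes were called at 3 h and 65.6% at 6 h, so 4 and 3 called members are near what most genes show.

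The effect itself was not shown to differ between the lines at 6 h. Of 12 tests of the effect in TMD8 minus that in HBL1, 0 were called by edgeR or DESeq2 and 0 had an unadjusted p under 0.05. The shares of all genes called at an adjusted p under 0.05 were 0.0216% with NGI-1, 0.151% with acalabrutinib and 0.562% with copanlisib. The estimates were between -0.72 and 0.70. The widest on the lower side was NLRP7 with copanlisib (-0.72, 95% interval -1.49 to 0.05, adjusted p = 0.819), and on the upper side SUSD3 with NGI-1 (0.70, -0.69 to 2.10, adjusted p = 0.930). For TAS1R3 the 3 estimates were positive, 0.16 to 0.51, and each 95% interval included 0, as that with copanlisib from -0.56 to 1.4997. The gap between the lines seen for TAS1R3 at 24 h was part of the choice of the genes and was not tested.

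Ordered by level over all 12 groups of a line, the 24 h groups of the 3 compounds were the top 3 for NLRP7 and SLC6A16 in both lines and for SUSD3 and TAS1R3 in TMD8. In HBL1, SUSD3 with NGI-1 at 24 h (11.8 and 13.9 CPM) came after copanlisib at 6 h and 3 h and overlapped with both. TAS1R3 with NGI-1 at 24 h in HBL1 (0.948 and 1.16 CPM) ranked below the DMSO libraries at 6 h (1.25 and 2.21 CPM). DMSO at 24 h was the lowest group in 6 of 8 orderings, the exceptions being SUSD3 in TMD8 and SLC6A16 in HBL1, where DMSO at 6 h was lowest. Many neighbouring groups overlapped: of 11 neighbouring pairs in an ordering, the libraries were apart in 9 for NLRP7 in HBL1, in 6 for SUSD3 and SLC6A16 in HBL1, and in 3 or 4 elsewhere. Groups were sorted by mean before the pairs were formed, and each ordering includes the 24 h values used in the choice. The count of pairs apart over all genes was not computed, so the orderings are a description only.

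Relatives of the 4 genes were followed in lists of their families. Of 27 tested NLR and inflammasome genes other than NLRP7, 28 of 162 tests at 24 h were called higher and 2 lower (17.3% and 1.23%, against 12.4% and 14.4% of all genes). CARD8, a sensor that can form an inflammasome, was called higher in 5 of 6 comparisons, with values of 0.95 to 1.00 in TMD8 and of 0.21 to 0.45 in HBL1. PYCARD, the adaptor that links sensors to caspase-1, was called higher in 4 of 6 (0.62 to 1.44 over all 6), and in 2 of 6 without TMD8 DMSO replicate 2. AIM2, a sensor of cytosolic DNA, was called higher in 4 of 6, with values of -0.11 to 0.82. NLRP2, a close relative of NLRP7 beside it on the chromosome, had at most 1 read per library in TMD8 and was not called in HBL1 at 24 h, with log2 fold changes of 0.03 to 0.06. At 6 h 10 of 162 tests of the list were called higher and 1 lower (6.17% and 0.617%, against 3.11% and 3.46% of all genes).

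Taste receptor and taste signalling genes were called higher in 23 of 72 tests at 24 h and lower in 0 (31.9% higher, against 12.4% of all genes), for 12 tested genes beside TAS1R3. TRPM4, a calcium-activated cation channel of taste cells and lymphocytes, was higher in 6 of 6 comparisons (0.38 to 1.11). GNB3, the G protein beta subunit of taste cells, was higher in 5 of 6, with values of 2.55, 3.34 and 3.53 in TMD8 and of 0.55, 0.93 and 1.19 in HBL1. PLCB2, the phospholipase of the taste cascade, was higher in 4 of 6 (0.92 to 1.45 over all 6). TAS1R1, the partner of TAS1R3 in the umami receptor, is named because of that role, after its values were seen. It was called higher in 3 of 6, with values of 2.47, 2.87 and 3.11 in HBL1, and had too few reads in TMD8 for a fold change to be given. At 6 h 4 of 72 tests of the list were called higher (5.56%, against 3.11% of all genes).

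The families of SUSD3 and SLC6A16 had fewer tested genes. Among 11 tested sushi domain and complement control genes, 15 of 66 tests at 24 h were called higher and 1 lower (22.7% and 1.52%, against 12.4% and 14.4% of all genes). KIAA0247, the sushi domain gene also named SUSD6, was higher in 6 of 6 comparisons (0.50 to 0.75). CD46, a complement regulator, was called higher in 3 of 6, with 0.34 to 0.45 in TMD8 and -0.16 to 0.03 in HBL1, and C4BPB, a chain of the C4b-binding protein with few reads, in 2 of 6 and with DESeq2 in 0. At 6 h 0 of 66 tests of this list were called, against 3.11% higher and 3.46% lower over all genes. Of 6 tested SLC6 transporters 1 of 36 tests was called higher and 3 lower at 24 h (2.78% and 8.33%, against 12.4% and 14.4% of all genes). SLC6A6, the taurine transporter, was lower with acalabrutinib and copanlisib in TMD8 (-0.47 and -0.35) and higher with NGI-1 in HBL1 (0.28), and SLC6A9, a glycine transporter, was called lower once. The median log2 fold change of each list in each comparison at 24 h was between -0.23 and 1.29, where that of all genes was between -0.02 and 0.01; the lists are small and hold genes of few reads.

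Genes beside the members in the RefSeq gene order were looked at for company on the chromosome. Of the 16 nearest protein-coding neighbours, 12 could be tested, and 3 were called higher in 5 or 6 of the 6 comparisons at 24 h and 1 lower. Over all genes, 7.53% to 15.6% were called higher and 11.4% to 17.7% lower in a single comparison at 24 h. The share of all genes called in 5 or 6 comparisons was not computed. Compounds of a line share DMSO libraries, so calls of a gene are not separate. These counts, like that of CD37 below, are therefore a description only. FGD3, a guanine nucleotide exchange factor for CDC42 next to SUSD3, had 62.7 and 63.7 CPM with NGI-1, 59.4 and 56.7 CPM with acalabrutinib and 60.9 and 68.6 CPM with copanlisib in TMD8 at 24 h, against 31.96 and 35.3 CPM with DMSO. It was higher in 6 of 6 comparisons at 24 h (0.46 to 0.94, adjusted p at most 0.00792) and in 5 of 6 at 6 h (0.46 to 0.95 where called). NINJ1, on the other side of SUSD3, was called higher in 3 comparisons at 24 h, all in HBL1, and lower in 2 at 6 h. Beside SLC6A16, TRPM4 was higher in 6 of 6 comparisons, and TEAD2, a transcription factor of the Hippo pathway, in 5 of 6 (0.45 to 1.37, in 3 of 6 without TMD8 DMSO replicate 1). AURKAIP1, beside TAS1R3, was called lower in 5 of 6 (-0.50 to -0.23), and CPTP higher in 2. INTS11, MXRA8, CARD19 and GP6 were not called, ZNF484 was higher in 2 comparisons and RDH13 lower in 2. The other 4 neighbours, FCAR, KIR3DL2, HRC and DKKL1, had too few reads.

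Genes that overlap a member in the RefSeq table were added after their values were seen. CD37, a tetraspanin of B cells, overlaps SLC6A16 and is far more abundant in reads. It had 1301 and 1292 CPM with NGI-1, 1204 and 1085 CPM with acalabrutinib and 1226 and 1287 CPM with copanlisib in TMD8 at 24 h, against 541 and 535 CPM with DMSO. CD37 was called higher in 5 of 6 comparisons at 24 h (0.18 to 1.27) and in 4 of 6 at 6 h (0.14 to 0.52). The genes lie on opposite strands, and the sources used here do not say whether counting used strand, so reads of a gene and of an overlapping partner cannot be told apart where exons meet. In GENCODE 29 (GRCh38), which may differ from the annotation used for counting, SLC6A16 and CD37 do not overlap, with 0 bases shared by the gene bodies or the exons. In RefSeq NLRP7 overlaps NLRP2 and NCR1, neither of which was called at 24 h. In GENCODE 29 its gene body shares 13183 bases with NLRP2 and 0 with NCR1, with 0 shared exon bases for each. TAS1R3 shares 31 exon bases (0.903% of its 3433) with DVL1, which was called lower in 1 comparison and higher in 0.

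**Figure D4:**
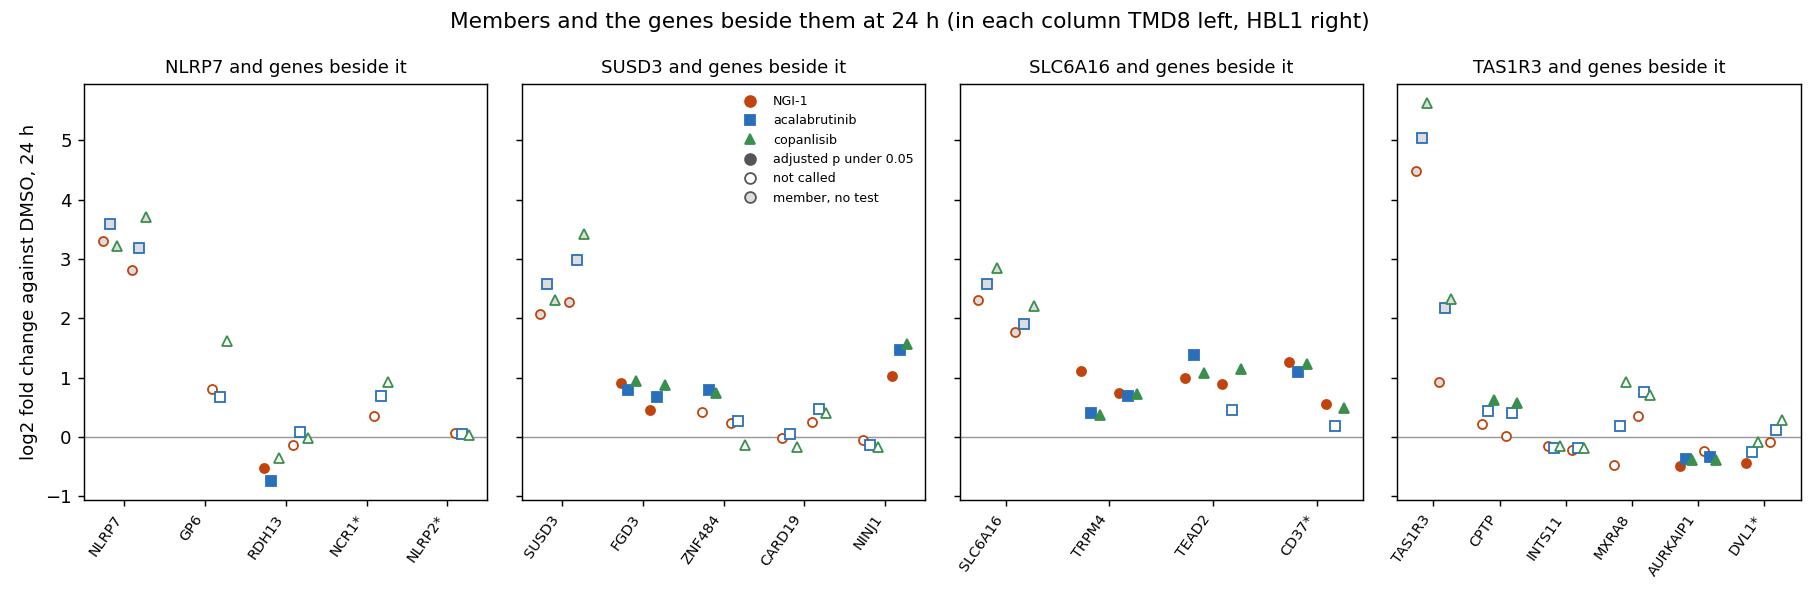
Log2 fold change against DMSO at 24 h of each member (grey marks, no test) and of the tested genes beside it, with TMD8 on the left and HBL1 on the right of each column; filled marks passed an adjusted p of 0.05, an asterisk marks a gene that overlaps the member, and a gene is drawn in a line where it had at least 100 reads there. FGD3, TRPM4, TEAD2 and CD37 are among the genes that lie above 0 in all their comparisons, as is CPTP in both lines, with most of its marks unfilled. GP6, NCR1 and NLRP2 also do so in HBL1, without a call.

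The likeness of the 4 genes over all libraries follows in part from their choice at 24 h. Over 48 libraries, with each line centred on its own mean, Pearson's r of log2 CPM was 0.86 between NLRP7 and SLC6A16, 0.83 between SUSD3 and SLC6A16, 0.75 between NLRP7 and SUSD3, and 0.69 to 0.75 between TAS1R3 and the others. Over the 32 libraries of 3 h and 6 h alone it was 0.74 between NLRP7 and SUSD3, 0.63 between NLRP7 and SLC6A16, 0.59 between SUSD3 and SLC6A16, and 0.08 to 0.12 between TAS1R3 and the others. These values describe libraries that share compounds, times and DMSO groups, and no test is attached to them. Among 11028 genes whose log2 CPM averaged 1 or more, the pattern most like NLRP7 over 48 libraries was VPS39 (0.86), followed by SLC6A16, CD79B, ATP2A3 and SH3TC1. For SUSD3 it was HPCAL1 (0.94), with PBXIP1, DHTKD1, EML6 and RIMS3 next, and for SLC6A16 it was CD79B (0.91), a chain of the B cell receptor, with ABCA7, GNB3 and NCF4 among those that followed. IL4R (0.87), the receptor of interleukin 4, came first for TAS1R3, before IGJ, GNB3, LRP10 and VMAC. In the early libraries alone the nearest were METTL7A for NLRP7 (0.84), NCF1 for SUSD3 (0.87, with FGD3 second at 0.86), ZC3H11A for SLC6A16 (0.82) and PAN2 for TAS1R3 (0.74).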

How the data were processed

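RNA from cultured cells was sequenced, and the authors deposited 1 table of read counts per gene; per the submitters' processing notes, hg19 and HTSeq were used, while neither aligner, versions nor strand setting are stated there or in the labels. Those counts were analysed as deposited in R 4.3.3 with edgeR 4.0.16 (TMM factors, filterByExpr with a minimum count of 10, 13881 of 25066 genes kept, robust quasi-likelihood fit of 24 group means with 24 residual degrees of freedom). Adjusted p-values are Benjamini-Hochberg over all tested genes of a comparison, called under 0.05. Log2 CPM used a prior count of 2. DESeq2 1.42.0, RLE factors, other filters, separate fits, replicate terms and leaving out libraries were alternatives. Genes without an ID held 0.815% of reads, and 27 symbols had become dates. The fit was also run on simulated counts of a single comparison, drawn without replicate structure, and no call here rests on that run.

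The members and lists were chosen with earlier results of these data known. Named genes were the members, up to 3 genes per list called in the same direction in most comparisons at 24 h, the 2 nearest coding genes per side, and the 5 genes most like each member, of which 1 is not reported here. Libraries differed from their duplicates by more than counting noise (chi-square per degree of freedom 2.53 to 8.49). The labels do not say that duplicates were separate cultures. Promoter letters are from RefSeq, GRCh38.p14, not from hg19.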

Additional observations from a re-analysis of the deposited data

How the results depend on the processing

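No called value of a member turned its direction under the alternatives run. The count of members called at 3 h was 2, and it was 1 with RLE size factors, with a stricter filter, with DESeq2, with a separate fit of each line and without the 24 h libraries, and 0 to 2 when libraries were left out in turn. The count at 6 h was 9, 8 with DESeq2 or a separate fit of each line, 10 with no filter or a replicate block, 12 with a replicate block within line and time, and 6 to 9 when libraries were left out in turn, with 6 without TMD8 DMSO replicate 1 or TMD8 copanlisib replicate 1. The count of direct comparisons called at 6 h was 5, and 3 to 5 when libraries were left out in turn, with 3 without HBL1 NGI-1 replicate 2. The family lists had 16 calls at 6 h, but 10 with DESeq2 and 39 with a replicate block within line and time.

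Replicate numbers are shared by the groups, and whether they pair the samples was not tested. Deviations of same-numbered libraries correlated positively with those of DMSO throughout, at 0.0467 to 0.176 in TMD8 and at 0.122 to 0.237 in HBL1. The main fit has no replicate term, so a pairing would be left out of it. With a replicate block, NLRP7 with NGI-1 in TMD8 at 6 h was called (0.82, adjusted p = 0.0474). With the replicate block within line and time, 1 change of an effect between 3 h and 6 h was called (SLC6A16 with copanlisib in HBL1), against 0 without it, and NLRP7 for NGI-1 minus acalabrutinib in HBL1 was called (adjusted p = 0.000928). Where leaving out a library left 1 in a group, that library was assumed to vary like the others. Low counts limit the fold changes of SUSD3 in TMD8 at 6 h (3 and 4 DMSO reads) and of TAS1R3 at 24 h (7 and 3 in TMD8, 5 and 5 in HBL1).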
